A study of Mus musculus with 9 samples.

Results

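The genes of calcitonin gene-related peptide (CGRP) and of the subunits of its receptors were examined in lumbar dorsal root ganglia of adult C57Bl6 mice, the ganglia that hold the sensory neurons of the hind limbs and lower trunk. They are 6 genes, taken by their mouse symbols from the 55536 gene identifiers counted in each library: the peptide genes Calca and Calcb, the receptor gene Calcrl, and the receptor activity-modifying protein genes Ramp1, Ramp2 and Ramp3. All 6 were found, each with 1 identifier, and all 6 passed the filter on low counts that left 17258 genes for testing. Messenger RNA was sequenced from ganglia with an inducible conditional knock-out (icKO) of Prdm12 (5 libraries) and from controls labelled wild type (4 libraries), both 1 month after tamoxifen, the drug used to trigger an inducible deletion. Prdm12 encodes a PR-domain zinc finger protein needed for the development of nociceptors, the pain-sensing neurons. The sources used here name neither the Cre driver nor the deleted exons, and they do not say that each library came from its own animal. The p-values therefore reflect the spread among the libraries, part of which may be technical. Since the controls are labelled wild type, an effect of the Prdm12 deletion and one of any other allele carried by icKO mice alone cannot be told apart.

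CGRP is a neuropeptide that many small-diameter sensory neurons store in dense-core vesicles and release from their endings, where it dilates blood vessels and takes part in pain and inflammation. Calca gives alpha-CGRP in neurons and, by use of other exons, the hormone calcitonin in the C cells of the thyroid, while Calcb gives beta-CGRP. Calcrl encodes a G protein-coupled receptor that needs a RAMP partner: with Ramp1 it forms the CGRP receptor, and with Ramp2 or Ramp3 it forms receptors for adrenomedullin, a vasodilator peptide for which blood vessel endothelium is a main target.

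Calca and Calcb lie 82285 bases apart on chromosome 7 and encode nearly the same mature peptide. The stretches that code for mature CGRP are shown because they bear on whether reads of the 2 genes can be separated. They were taken from the GENCODE M21 transcripts on GRCm38, at chr7:114632470-114632580 on the minus strand for Calca and chr7:114721994-114722104 on the plus strand for Calcb, each within 1 exon. Capitals mark the bases at which the 2 genes differ.
Calca: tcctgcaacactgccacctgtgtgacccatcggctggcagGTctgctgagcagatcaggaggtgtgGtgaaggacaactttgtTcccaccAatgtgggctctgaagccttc
Calcb: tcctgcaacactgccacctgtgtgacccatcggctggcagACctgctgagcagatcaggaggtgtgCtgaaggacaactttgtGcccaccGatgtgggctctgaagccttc
Over these 111 bases 5 differed, in 4 of 37 codons, of which 3 changed the residue and 1 did not. Over the whole transcripts only exact matches were counted, so sequence that is similar but not identical was not measured. The longest identical run between any transcripts of the 2 genes was 61 bases, and 0.952% of all 50-base windows of the Calcb transcripts also occurred in Calca. The handling of reads that fit both genes is not stated in the sources used here, so counts from that stretch are uncertain. Between the RAMP genes the longest identical runs were 10 to 14 bases.

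Of the 6 genes, Calcb rose and the other 5 did not pass the test of icKO against control. The test was edgeR's quasi-likelihood test over all 17258 genes with Benjamini-Hochberg adjustment and a threshold of 0.05, which called 0.852% of all tested genes, 0.475% as higher and 0.377% as lower. At an unadjusted p under 0.05, Calcb and Ramp2 were higher, a level and direction that 4.85% of all tested genes reached, while 6.26% were lower at that level. DESeq2 called 1.18% of the genes to which it gave an adjusted p as higher and 1.38% as lower. The median log2 fold change of the 6 was 0.20, against -0.00076 over all tested genes. Of the 6, 4 lay above 0, as did 49.8% of all tested genes. Levels below are in CPM, counts scaled to a common library total with TMM factors, and fold changes are icKO over control.

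**Figure D1:**
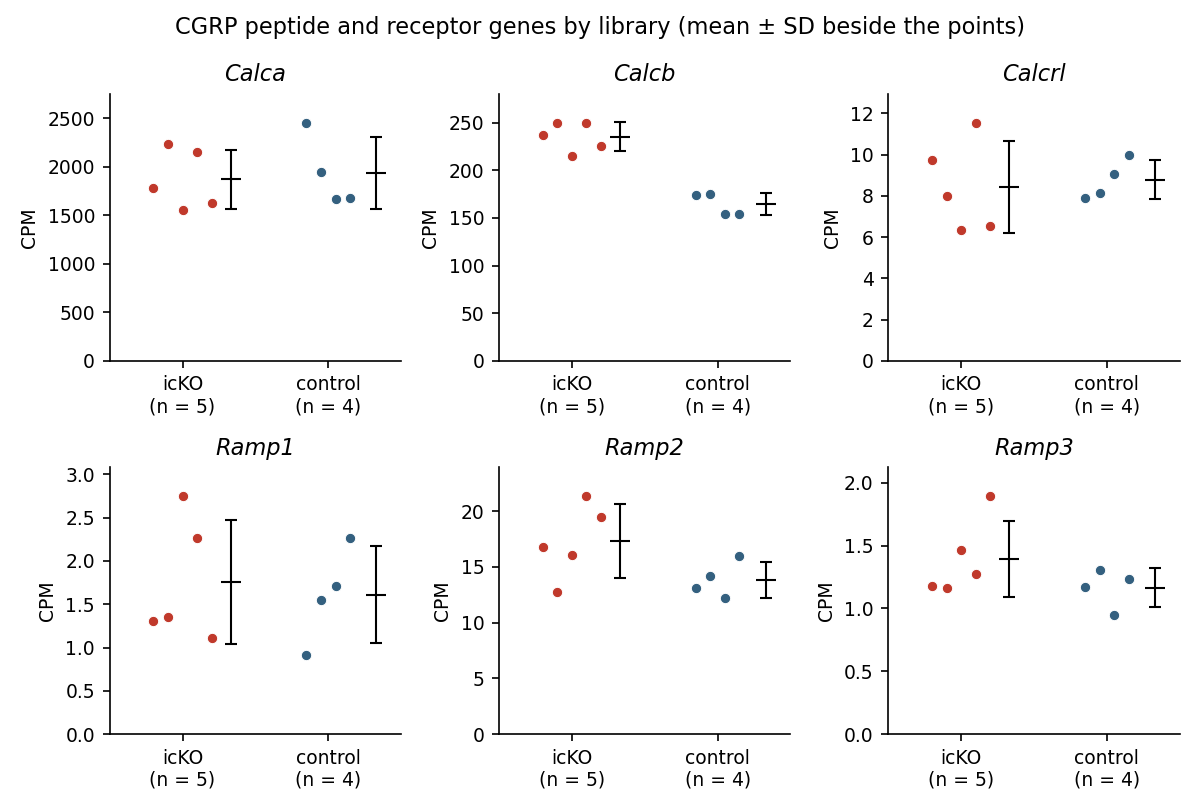
CPM (vertical axes, starting at 0) of the 6 genes in each of 5 icKO and 4 control libraries, with the mean and SD drawn beside the points. For Calcb the icKO libraries, from 214 to 250.0 CPM, all lie above the control libraries, from 154 to 176 CPM, and for each of the other 5 genes the groups overlap.

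Calcb, the beta-CGRP gene (ENSMUSG00000030666, chr7:114718643-114723365 on the plus strand of GRCm38), was at 237, 250.0, 214, 249.7 and 225 CPM in icKO libraries 1 to 5, against 174, 176, 154.2 and 154.3 CPM in control libraries 1 to 4. Every icKO library lay above every control library. Groups that did not overlap were found for 4.5% of all tested genes, and for 2.16% with icKO the higher. The means were 235 ± 15.6 CPM in icKO (SD, n = 5) and 164 ± 11.8 CPM in control (SD, n = 4), a 1.43-fold difference with a 95% interval from 1.29 to 1.58. On the log2 scale the fold change was 0.52 (SE 0.07, edgeR adjusted p = 0.00253). The counts behind it were 2995 to 7051 per library. In a bulk sample, more cells that express Calcb and more Calcb RNA per cell cannot be told apart.

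The Calcb difference was present in libraries of both sexes, as read from Xist and Y-linked genes. Libraries icKO 3, 4 and 5 and control 2 and 4 were read as female, and icKO 4 stood apart among them with 3.58 CPM of Y-linked transcripts, against 0.104 to 0.67 CPM in the other female libraries. In the 3 female icKO libraries Calcb was at 214 to 249.7 CPM, against 154.3 and 176 CPM in the 2 female control libraries. In the 2 male icKO libraries it was at 237 and 250.0 CPM, against 154.2 and 174 CPM in the 2 male control libraries. With sex as a term in the fit the log2 fold change was 0.52 (SE 0.07, edgeR adjusted p = 0.00312), and without icKO 4 it was 0.49 (SE 0.07, edgeR adjusted p = 0.00829).

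Calca, the alpha-CGRP gene (ENSMUSG00000030669, chr7:114631478-114636357 on the minus strand), was at 1776, 2231, 1558, 2153 and 1628 CPM in icKO libraries 1 to 5, against 2453, 1942 (control 2), 1665 and 1679 CPM in control libraries 1 to 4. The groups overlapped over most of their range, and control 1 was the highest of all 9 libraries. The means were 1869 ± 306 CPM in icKO (SD, n = 5) and 1935 ± 368 CPM in control (SD, n = 4). The log2 fold change was -0.05 (SE 0.13, edgeR adjusted p = 0.939), and its 95% interval runs from 0.792-fold to 1.18-fold. That interval lies wholly below the 1.29-fold lower bound of the Calcb interval, although the difference between the 2 genes was not itself tested. Counts per gene hold both the CGRP and the calcitonin transcripts of Calca. Among thyroid markers, Tg had 1 to 9 counts per library and Nkx2-1 no count in 8 of the 9 libraries. Slc5a5 was at 22.5 CPM in icKO, against 24.2 CPM in control. The levels of these markers do not show which Calca transcripts were counted.

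Within each group Calca and Calcb kept nearly the same order over the libraries. In icKO both genes were lowest in library 3, then 5, 1 and 4, and highest in library 2. In control, libraries 3 and 4 were the lowest for both, and libraries 1 and 2 changed places at the top. Set against each other, the libraries of the 2 groups fell on separate bands. Calcb amounted to 17.8%, 14.9%, 18.3%, 15.5% and 18.4% of Calca per kb of exon in icKO libraries 1 to 5, against 9.43%, 12.04%, 12.3% and 12.2% in control libraries 1 to 4. The lowest icKO value lay above the highest control value. This share does not depend on how libraries are scaled to each other, and it was given no test because it combines genes chosen together. Its mean was 17.0% ± 1.67 in icKO (SD, n = 5) and 11.5% ± 1.40 in control (SD, n = 4). The sum of both peptide genes per kb was 1296 ± 194 CPM per kb in icKO and 1279 ± 226 CPM per kb in control, since Calca made up most of it.

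**Figure D2:**
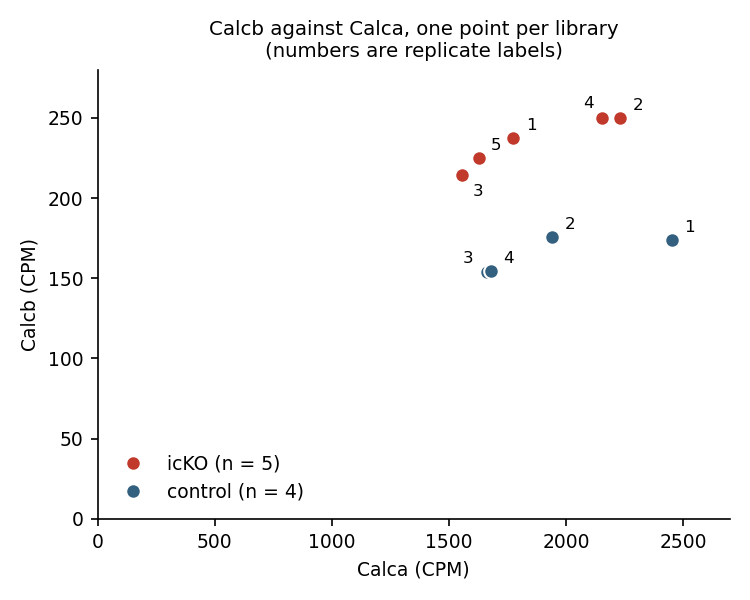
Calcb against Calca, both in CPM on axes from 0, with 1 point per library and its replicate number. At like levels of Calca the 5 icKO points lie above the 4 control points, with Calcb at 214 CPM or more in icKO and 176 CPM or less in control.

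Seen per kb of exon, the peptide genes stood far above the receptor genes in both groups. Calca averaged 1110 ± 182 CPM per kb in icKO and 1149 ± 219 CPM per kb in control, which ranked 14th in icKO and 13th in control among 14804 tested protein-coding genes. Calcb averaged 186 ± 12.3 CPM per kb in icKO and 130.1 ± 9.32 CPM per kb in control, ranks 153 and 250. Next came Ramp2 at 5.24 ± 1.00 CPM per kb in icKO and 4.20 ± 0.491 CPM per kb in control. Calcrl followed at 1.73 ± 0.453 and 1.80 ± 0.194, Ramp3 at 1.01 ± 0.221 and 0.845 ± 0.113, and Ramp1 at 0.581 ± 0.236 and 0.533 ± 0.184 CPM per kb in icKO and control. Neighbours in this order were separated in every library of a group except at its low end. Ramp3 and Ramp1 overlapped in both groups, and Calcrl and Ramp3 overlapped in icKO, where Calcrl reached down to 1.30 and Ramp3 up to 1.37 CPM per kb. The length of Ramp2 includes 1103 exon bases, 33.4% of the total, that it shares on the same strand with Vps25. With these bases taken off the length and the counts unchanged, its icKO libraries stood at 5.82 to 9.73 CPM per kb. Its control libraries then stood at 5.55 to 7.27 CPM per kb.

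Calcrl, the receptor shared by CGRP and adrenomedullin (ENSMUSG00000059588, chr2:84330626-84425411 on the minus strand), was at 9.72, 7.98, 6.34, 11.6 and 6.55 CPM in icKO libraries 1 to 5, against 7.92, 8.17, 9.07 and 9.996 CPM in control libraries 1 to 4. The icKO libraries spread to both sides of the control range. The log2 fold change was -0.06 (SE 0.17, edgeR adjusted p = 0.947), with a 95% interval from 0.746-fold to 1.24-fold. Calcrl is known to be expressed in endothelium. The sum of 10 endothelial markers was 104.9 to 143 CPM in icKO and 107 to 137 CPM in control. By edgeR or DESeq2 0 of 10 passed, where edgeR called 0.852% of all tested genes. At an unadjusted p under 0.05 there were 0, against 11.1% of all tested genes. In both groups the library highest for Calcrl, icKO 4 and control 4, was also the highest for the endothelial sum, and its part in the Calcrl values was not tested.

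Ramp1, whose product turns Calcrl into the CGRP receptor (ENSMUSG00000034353, chr1:91179822-91225196 on the plus strand), was among the least abundant of the 6, with 25 to 79 counts per library. It was at 1.31, 1.36, 2.75, 2.26 and 1.11 CPM in icKO libraries 1 to 5, against 0.916, 1.55, 1.71 and 2.27 CPM in control libraries 1 to 4. Libraries of the same group differed by more than the groups did. The log2 fold change of 0.14 (SE 0.31, edgeR adjusted p = 0.915) has a 95% interval from 0.695-fold to 1.75-fold, so a change of the size seen for Calcb was not detectable at this depth and spread.

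Ramp2, the adrenomedullin receptor partner typical of blood vessels (ENSMUSG00000001240, chr11:101246028-101259546 on the plus strand), was at 16.8, 12.8, 16.1, 21.4 and 19.5 CPM in icKO libraries 1 to 5, against 13.1, 14.2, 12.2 and 15.97 CPM in control libraries 1 to 4. In icKO 4 of the 5 libraries lay above all control libraries, and icKO 2 lay within their range. Its log2 fold change of 0.32 (SE 0.13) did not pass (edgeR adjusted p = 0.385), and without icKO 4 it was 0.24 (SE 0.13, edgeR adjusted p = 0.67). Its unadjusted p by edgeR's test was 0.0331, and 11.1% of all tested genes had an unadjusted p under 0.05. By sex, the female icKO libraries were at 16.1 to 21.4 CPM against 14.2 and 15.97 CPM in female controls, and the male icKO libraries at 12.8 and 16.8 CPM against 12.2 and 13.1 CPM in male controls. With sex as a term the log2 fold change was 0.29 (SE 0.11, edgeR adjusted p = 0.31). The sum of 8 fibroblast and meningeal markers, 877 to 2301 CPM in icKO and 707 to 1485 CPM in control, was highest in icKO 4, the library with the most Ramp2. All 8 had a log2 fold change above 0, as did 49.8% of all tested genes, with a median of 0.22. By edgeR or DESeq2 0 passed, where edgeR called 0.852% of all tested genes. At an unadjusted p under 0.05, 1 was higher, as were 4.85% of all tested genes. In icKO 5, the next highest for Ramp2, the fibroblast and meningeal sum was 1425 CPM. The endothelial sum was 104.9 CPM in icKO 5, the lowest of the 9 libraries. The sum of 5 erythroid markers followed the order of Ramp2 over the icKO libraries but not over the control libraries. The part of these cell types in the Ramp2 values was not tested. Reads that fall on exons shared by Ramp2 and Vps25 could not be assigned from the counts.

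Ramp3, the other adrenomedullin receptor partner (ENSMUSG00000041046, chr11:6658521-6677475 on the plus strand), was at 1.18, 1.16, 1.46, 1.27 and 1.90 CPM in icKO libraries 1 to 5, against 1.17, 1.31, 0.948 and 1.24 CPM in control libraries 1 to 4, with 24 to 48 counts per library. The groups overlapped, with icKO 5 the highest and control 3 the lowest. The log2 fold change was 0.26 (SE 0.20, edgeR adjusted p = 0.707), with a 95% interval from 0.891-fold to 1.61-fold. That interval also holds the 1.43-fold change of Calcb. Of its exon bases, 7.32% are covered by the antisense pseudogene Gm11978, and the use of strand in counting is not given in the sources used here.

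The shares of the 3 RAMP genes overlapped between the groups. Of the 3 RAMP genes summed per kb, Ramp2 made up 71.2% to 79.8% in icKO and 74.6% to 77.5% in control, Ramp3 11.3% to 17.96% in icKO and 13.8% to 16.6% in control, and Ramp1 4.78% to 13.3% in icKO and 5.93% to 11.6% in control. The icKO range enclosed the control range for each of the 3 genes. The RAMP sum was 3.16 to 5.70 times the level of Calcrl in icKO and 2.66 to 3.44 times in control. The ratio was highest in icKO 5 and icKO 3, the libraries with the least Calcrl.

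**Figure D3:**
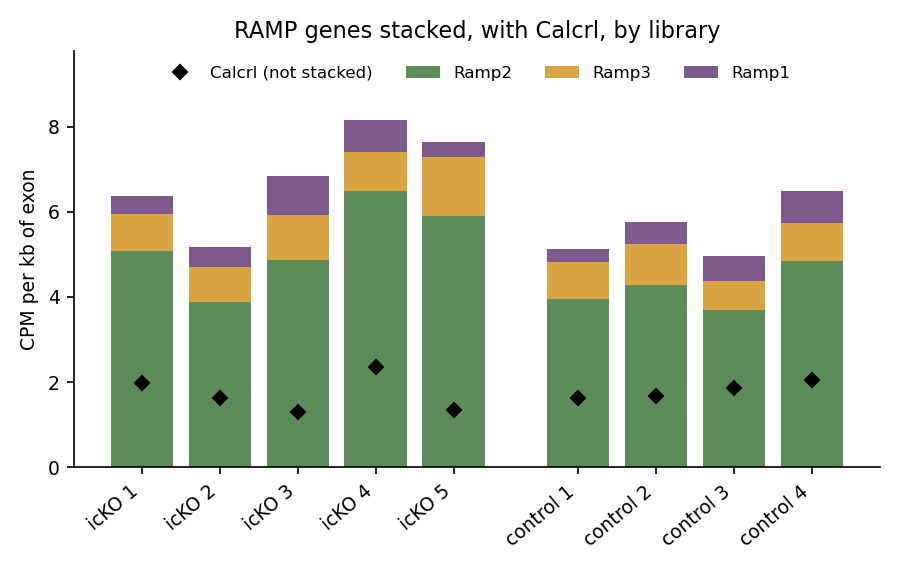
CPM per kb of exon of Ramp2, Ramp3 and Ramp1, stacked for each of the 5 icKO and 4 control libraries, with Calcrl as a separate diamond that is not part of the stack. Ramp2 is the largest part of every bar, at 71.2% to 79.8% in icKO and 74.6% to 77.5% in control.

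The position of Calcb was then considered, because it lies beside Calca. Of 20 annotated genes within 500 kb of the pair on either side, 8 were tested. Apart from Calca and Calcb, 0 of 6 passed by edgeR or by DESeq2, with log2 fold changes from -0.41 to 0.06. Of all tested genes edgeR called 0.852%, and 11.1% had an unadjusted p under 0.05. At an unadjusted p under 0.05 there was 1, Insc, the next coding gene after Calcb, named here after its value was seen, at 10.5 CPM in icKO, against 12.2 CPM in control (log2 fold change -0.21, SE 0.09, edgeR adjusted p = 0.373).

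Other genes of the calcitonin peptide family and its receptors did not pass. Of 5 listed, 2 could be tested and 0 passed by edgeR or DESeq2, where edgeR called 0.852% of all tested genes. At an unadjusted p under 0.05 there were 0, against 11.1% of all tested genes. Adm, the adrenomedullin gene, was at 1.25 ± 0.295 CPM in icKO, against 0.964 ± 0.224 CPM in control (log2 fold change 0.36, SE 0.23, edgeR adjusted p = 0.633). Crcp, a gene whose product was described as a component of CGRP receptor signalling, was at 54.9 ± 4.33 CPM in icKO, against 56.1 ± 6.01 CPM in control (log2 fold change -0.03, SE 0.08, edgeR adjusted p = 0.922). Calcr, the calcitonin receptor gene, had at most 2 counts in any library, Adm2 at most 3, and the amylin gene Iapp had no count in any. A count of 0 allows up to 0.102 to 0.153 CPM (3 counts), which covers counting error only.

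Among 15 genes of neuropeptide processing and dense-core vesicles, 1 rose and 14 did not pass, where 0.475% of all tested genes rose. The median log2 fold change was -0.10. At an unadjusted p under 0.05, 3 were higher and 3 lower, where 4.85% of all tested genes were higher and 6.26% lower. The gene that rose was Pam, which encodes the enzyme that amidates the carboxyl end of peptides, a step that CGRP needs for full activity. Pam was at 269, 259, 253, 267 and 256 CPM in icKO libraries 1 to 5, against 212 (control 1), 172, 206 and 205 CPM in control libraries 1 to 4. The groups did not overlap, as was so for 4.5% of all tested genes, and for 2.16% with icKO the higher. In this list the groups also did not overlap for Cpe, higher in icKO, or for Scg2 and Chga, lower in icKO. The log2 fold change of Pam was 0.39 (SE 0.07, edgeR adjusted p = 0.0138). The Pam call was lost without icKO 1 (log2 fold change 0.38, adjusted p = 0.0531) and with a replicate block (0.40, adjusted p = 0.0917). The granin genes Scg2 and Chga, whose products pack dense-core vesicles, did not pass. Scg2 was at -0.18 (SE 0.06, edgeR adjusted p = 0.205), though DESeq2 called it lower (adjusted p = 0.0437), and Chga was at -0.23 (SE 0.08, edgeR adjusted p = 0.263) on the log2 scale, while Scg5, a chaperone gene of the prohormone convertase PC2, was at 0.23 (SE 0.08, edgeR adjusted p = 0.291). The convertase genes Pcsk1 and Pcsk2 had log2 fold changes of -0.08 and -0.00076, and Cpe, a carboxypeptidase gene, 0.11 (adjusted p = 0.398).

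Downstream of the CGRP receptor, 0 of 23 genes of Gs and cAMP signalling passed by edgeR's test, with a median log2 fold change of -0.08 and, at an unadjusted p under 0.05, 2 higher and 5 lower, where 4.85% of all tested genes were higher and 6.26% lower. DESeq2 called 2 of the 23, both lower, where it called 1.38% of all genes lower. Those 2 were the adenylyl cyclase genes Adcy5, at 65.0 ± 5.52 CPM in icKO, against 81.8 ± 9.66 CPM in control (log2 fold change -0.33, SE 0.08, edgeR adjusted p = 0.101), and Adcy3, at 13.0 ± 1.52 CPM in icKO, against 17.4 ± 2.27 CPM in control (-0.42, SE 0.11, edgeR adjusted p = 0.11). Another cyclase gene, Adcy2, was at -0.28 (SE 0.08, edgeR adjusted p = 0.155), and Prkaca, a catalytic subunit of protein kinase A, at -0.26 (SE 0.08, edgeR adjusted p = 0.22). Without control 2, edgeR called Adcy5, Adcy3 and Adcy2 as lower, with adjusted p of 0.0338, 0.0435 and 0.0448. Without the filter on low counts, edgeR called Adcy5 and Adcy3 as lower, with adjusted p of 0.0217 and 0.0388.

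Of 9 genes of receptor desensitisation and peptide breakdown, 0 passed by edgeR or DESeq2, where edgeR called 0.852% of all tested genes. The median log2 fold change was -0.01. At an unadjusted p under 0.05, 1 gene was higher, as were 4.85% of all tested genes. That gene was Grk3, a G protein-coupled receptor kinase, at 41.1 ± 2.42 CPM in icKO, against 31.8 ± 6.24 CPM in control (log2 fold change 0.37, SE 0.11, edgeR adjusted p = 0.176). Without the filter on low counts Grk3 was called higher (log2 fold change 0.38, edgeR adjusted p = 0.0227). Grk2 was at -0.16 (SE 0.09), the neutral endopeptidase gene Mme at -0.11 (SE 0.07) and the arrestin gene Arrb1 at 0.10 (SE 0.11), with adjusted p of 0.55 to 0.808.

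Calca and Calcb are markers of peptidergic nociceptors, and other genes of that class were set beside them. At an unadjusted p under 0.05, 1 of the 10 listed was higher and 3 were lower, where 4.85% of all tested genes were higher and 6.26% lower. By edgeR's test 0 rose, 2 fell and 8 did not pass, where 0.377% of all tested genes fell. The median log2 fold change of the 10 was -0.0013. Gfra3, which encodes the artemin receptor subunit, was among those that fell, at 43.3 ± 4.57 CPM in icKO, against 68.5 ± 13.9 CPM in control (log2 fold change -0.66, SE 0.12, edgeR adjusted p = 0.0252). That call was lost without icKO 1, 3, 4 or 5 or control 1, 3 or 4 (log2 fold changes -0.68 to -0.55, highest adjusted p 0.0761) and with a replicate block (-0.61, adjusted p = 0.133). Tac1, the gene of substance P, which is stored with CGRP in many of these neurons, was at 615, 634, 454, 616 and 447 CPM in icKO libraries 1 to 5, against 494, 385, 457 and 381 CPM in control libraries 1 to 4. Its icKO libraries 3 and 5 lay within the control range, and its log2 fold change of 0.37 (SE 0.12) did not pass (adjusted p = 0.25). Without the filter on low counts Tac1 was called higher (log2 fold change 0.38, edgeR adjusted p = 0.0476). The heat-activated channel gene Trpv1 was at -0.0065 (SE 0.10), and the prokineticin receptor gene Prokr2 at -0.36 (SE 0.10, edgeR adjusted p = 0.125), which DESeq2 called lower (adjusted p = 0.0285).

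**Figure D4:**
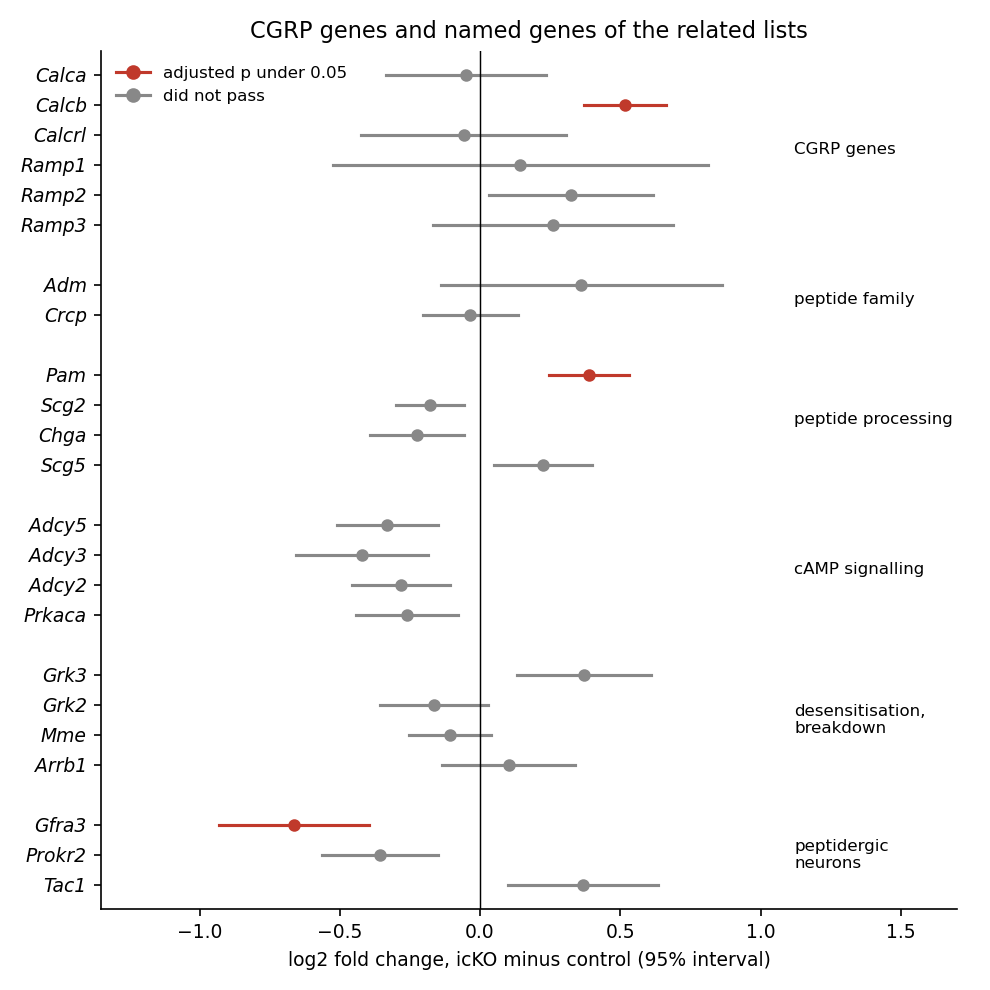
Log2 fold changes, icKO minus control, with 95% intervals for the 6 CGRP genes and the genes named from the 5 related lists, in red where the adjusted p was under 0.05. Calcb at 0.52 and Pam at 0.39 lie above 0 and Gfra3 at -0.66 below it, and the genes in grey did not pass.

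The genes most like each member in their variation among libraries of the same group were sought among 9912 protein-coding genes with a mean of at least 10 CPM, by Pearson's r of log2 CPM after subtraction of the group mean over the 9 libraries. The r values are descriptions of these libraries, which share depth and tissue content, and the highest of so many are large by selection. For Calca they were Pafah1b2 (0.96), Bzw2 (0.95) and the growth-associated protein gene Gap43 (0.95), against 0.89 between Calca and Calcb. For Calcb they were Lyrm1 (0.97), Cox19 (0.97) and Krt222 (0.95), whose own log2 fold changes were -0.01, 0.06 and -0.16. For Calcrl they were Mbnl1, Bclaf1 and Lin28b (0.97 each), and for Ramp2 Plod2 (0.96), Kif23 (0.96) and Qtrt2 (0.94). For Ramp1 they were Zfp521 (0.94), Zcchc4 (0.89) and Pbxip1 (0.89), and for Ramp3 Rce1 (0.97), Elovl4 (0.95) and Sfrp5 (0.94). None of these 18 genes passed the test of icKO against control by edgeR.

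The libraries held 19607740 to 29481589 counts. Prdm12 was at 22.3 to 26.2 CPM in icKO, against 116 to 163 CPM in control, lower in icKO as its label says (log2 fold change -2.48, SE 0.09, edgeR adjusted p = 2.51e-08). Pan-neuronal markers summed to 11076 to 12889 CPM in icKO and 10939 to 12800 CPM in control. Over 13 lists of cell type markers, 0 of 75 tested genes passed by edgeR. Of all tested genes 0.852% passed, so 0 of 75 does not show that cell content was equal. At an unadjusted p under 0.05 there were 3 higher and 3 lower, where 4.85% of all tested genes were higher and 6.26% lower. DESeq2 called 1, the synaptic gene Syt1, as higher, where it called 1.18% of all genes higher. Some lists lay to 1 side of 0 in log2 fold change. All 5 erythroid markers were above 0 (median 0.57), as were the 8 fibroblast and meningeal markers. Of 5 skeletal muscle markers (median -0.94) and 4 adipocyte markers (median -0.97), 0 were above 0. The part of carried-over tissue in these values was not tested. Of the spinal cord markers, Olig2 and Slc32a1 were at no more than 1 count in any library and Mog and Chat at no more than 5.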

How the data were processed

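Messenger RNA of lumbar dorsal root ganglia was sequenced in 9 libraries, grouped by their titles. The deposited values were raw counts per gene, and the submitters' processing notes name featureCounts 1.5.0-p1, the aligner STAR 2.5.2a, bcl2fastq 2.20.0.422 and the build mm10. The sources used here give no annotation release, use of strand or handling of multi-mapping reads. All 55536 identifiers matched GENCODE M21 (GRCm38, the same build), which gave symbols, positions and union exon lengths.

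From the counts, genes were kept with filterByExpr (minimum count 10, minimum total 15), scaled with TMM factors and tested with edgeR 4.0.16 (quasi-likelihood, R 4.3.3) over all 17258 genes, with Benjamini-Hochberg adjustment. Each SE was taken as the absolute log2 fold change over the root of F, and 95% intervals use the t distribution with 12.4 degrees of freedom. Libraries of the same group differed beyond sampling noise (chi-square over its degrees of freedom, 6.03 to 23.2), so each was counted once. In simulated counts for all 17258 genes of this comparison, 46 of 67 genes with a true 1.5-fold change were called, as were 55 of 67 at 2-fold, 62 of 66 at 3-fold and 9 of 17058 with none. DESeq2 1.42.0 was an alternative.

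Named genes were the 6 members and, from each of 5 related lists, genes past the threshold and up to 4 with the smallest adjusted p. The related lists, the 13 marker lists and the members were chosen with earlier results of these data known. A gene that met the rule and a marker gene are not reported here. No other columns of per-sample values were used.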

Additional observations from a re-analysis of the deposited data

Results flagged for a closer look

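Of 66 sets of 4 or 5 libraries examined, 4 held a library that stood apart from the rest of its group by Dixon's criterion, where chance gives about 1 in 20. Control 1 had the lowest share of Calcb relative to Calca, at 9.43%, with the other control libraries at 12.04% to 12.3%, and the lowest share of Calcb in the summed peptide genes, at 8.62%, with the others at 10.7% to 10.98%. In the same library Ramp2 made up 77.5% of the RAMP genes, with the others at 74.6% to 74.7%. For Grk3, icKO 1 was the lowest of its group at 36.9 CPM, with the other icKO libraries at 41.4 to 43.2 CPM.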

How the results depend on the processing

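Calcb remained above 0 and past the threshold under all 17 alternatives, with log2 fold changes of 0.49 to 0.56 and adjusted p up to 0.0278, reached with a replicate block. The other 5 members remained short of it under all 17. Calca lay above 0 without icKO 3 or 5 or control 1, Calcrl above 0 without icKO 3 or 5 or control 4, and Ramp1 below 0 without icKO 3 or control 1. Over single libraries left out, log2 fold changes ranged from 0.49 to 0.56 for Calcb, -0.12 to 0.082 for Calca, -0.20 to 0.038 for Calcrl, -0.074 to 0.34 for Ramp1, 0.24 to 0.41 for Ramp2 and 0.14 to 0.32 for Ramp3. The ratio of icKO to control in the share of Calcb relative to Calca was 1.48 and ranged from 1.39 to 1.52, and for the shares of Ramp1, Ramp2 and Ramp3 it ranged from 0.778 to 1.003, 1.01 to 1.03 and 0.93 to 1.04, also with the length of Ramp2 shortened, an alternative chosen after seeing the data. Of all tested genes, 82 were higher and 65 lower, 172 and 221 without a count filter, 196 and 229 with DESeq2, 28 and 20 with a replicate block, and 45 to 85 and 33 to 90 over single libraries left out, with 33 to 43 lower without icKO 1, 3, 4 or 5 or control 1 or 3, and 45 higher without icKO 1. Libraries with the same number shared only that number, with correlations of their deviations from -0.41 to 0.29, and each of icKO 1 to 4 correlated best with a control library of another number. The block gave each replicate number its own level. Number 5 occurs in icKO alone, so icKO 5 added nothing to the blocked comparison, which also had fewer degrees of freedom. With the block Calcb was at 0.53 (SE 0.07), Pam lost its call, and Crcp turned to 0.0040. With single libraries left out Crcp ranged from -0.098 to 0.0083, above 0 without icKO 5, control 1 or control 2. The causes were not tested. Ramp1 and Ramp3 rest on 24 to 79 counts per library, and how much of their spread is counting error was not tested.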
